A study of Mus musculus with 8 samples.

Results

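Blood neutrophils of mice given LPS were compared with blood neutrophils of mice given PBS, using every plate of single cells that the table holds for these 2 groups. The plates were chosen by their names and by the authors' cell annotation, which gave 711 of the 1421 cells and 8 of the 17 plates of the series. LPS-primed peripheral blood (PB) neutrophils made up 363 cells on 4 plates, and PBS-primed PB neutrophils 348 cells on the other 4. Each group had 2 plates in the batch the authors call 6 and 2 in batch 7. The plates not used here hold bone marrow neutrophils.

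Lipopolysaccharide (LPS) is the endotoxin of the outer membrane of Gram-negative bacteria, and the mice received 0.5 mg/kg of it by the intraperitoneal route, or PBS. The sample labels give 0 h for PBS and 4 h for LPS, whereas the study's methods, for donors of transferred cells, describe preparation 4 h after either injection. The labels name no genotype or strain, and the methods list C57BL/6 J as the wild-type mice and describe young adult males throughout. Neutrophils were enriched from blood by negative selection with a kit, so that other blood cells can remain, and single cells were picked by mouth pipette. They were sequenced by SCRB-seq, a plate method in which a barcode names the cell and a random tag, the unique molecular identifier (UMI), names the original transcript, and copies of one tag count once. No source says how many mice gave the cells of a plate, and p-values here measure the spread between plates, which may be technical.

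LPS binds the complex of Cd14, Tlr4 and Ly96 (MD-2) on myeloid cells. The adaptor Myd88 then leads to NF-kB and its inflammatory targets, and the adaptor Ticam1 (TRIF) to type I interferon, which acts through Jak and Stat proteins on interferon-stimulated genes. Neutrophils also carry ready-made granules, whose proteins are made at successive stages of maturation in the marrow, primary granules first and secondary and tertiary granules later, and systemic inflammation is known to release younger neutrophils into blood.

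UMIs were summed over the cells of a plate, so that the plate and not the cell was the unit, and the 4 LPS plates were tested against the 4 PBS plates with batch as a term of the model (edgeR's quasi-likelihood test). A gene was called when its p, adjusted by the Benjamini-Hochberg method over all 7409 genes tested, was under 0.05 and its change had the same direction within batch 6 and within batch 7. Levels are normalised UMI counts scaled to a common library total (CPM, scaled by the TMM method), and they are listed in a fixed order, first plates 1 and 2 of batch 6, then plates 1 and 2 of batch 7. Means are given ± SD over the 4 plates of a group. Fold changes are log2 values of LPS over PBS, and the ± after them is a standard error worked back from the test statistic. Changes given within a single batch are differences of mean log2 CPM with a small count added. They are not terms of the tested models and need not match the fold change or the difference between batches given beside them. In such sums, fewer cells of a type and less RNA per cell cannot be told apart.

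Of the 7409 genes, 784 were called, a background of 10.6%. LPS-primed PB neutrophils had higher levels of 544 genes (7.34%) and lower levels of 240 (3.24%). No gene past the threshold had opposite directions in the batches, and the 4 LPS plates lay wholly above or wholly below the 4 PBS plates in 720 of the 784. Among all genes tested, called or not, the LPS plates lay wholly above in 734 (9.91%) and wholly below in 592 (7.99%). The rises took in most interferon-stimulated genes on the lists, many secondary granule genes and several regulators of NF-kB. They also took in the interleukin-1 antagonists Il1rn and Il1r2 and the mitochondrial superoxide dismutase Sod2. The activating genes Il1a and Il1rap were called too, with calls lost without any of several single plates, and Il1b was not called. The falls included the immediate early gene Fos, the marrow-retention receptor Cxcr4, the G-CSF receptor Csf3r and a set of lymphocyte genes. The calls of Cxcr4 and Csf3r were also lost without any of several single plates. Leaving out 1 plate gave 476 to 639 calls, with 476 without batch 6 LPS plate 1, 501 without batch 6 PBS plate 1 and 522 without batch 7 PBS plate 1. Of the calls, 324 of the rises and 41 of the falls held in every fit with 1 plate left out that tested the gene.

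Totals ran from 3235712 to 12018299 UMIs per plate and medians from 32228 to 117359 UMIs per cell, with the highest on the LPS plates of batch 6. The median ratio of spike-in RNA per cell was 0.398 to 0.520 on the LPS plates and 0.596 to 0.664 on the PBS plates. The calgranulins S100a8 and S100a9, which together form the zinc-binding protein calprotectin, took 22.2 to 28.7% of all UMIs on the LPS plates and 10.2 to 15.6% on the PBS plates, and the 10 highest genes 36.6 to 45.7% against 20.8 to 27.6%. The scaling therefore matters. The median change of all genes was -0.21 on the TMM scale and -1.12 when plates were scaled by library size only, which gave 279 genes higher (3.77%) and 1020 lower (13.8%). The calls under both scalings numbered 517, with 277 higher and 240 lower, and all of them kept their direction. Larger rises can lose their call with the scale. In the list of NF-kB and its regulators 9 genes rose with TMM, each by at least 2.12, and 5 rose with library size alone. Small rises can also change direction. Actb, beta-actin, rose by 0.82 ± 0.20, adjusted p = 0.0232 (edgeR) with TMM and had -0.11 with library size alone, and its call was lost without any of the batch 7 plates (adjusted p up to 0.0768).

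**Figure D1:**
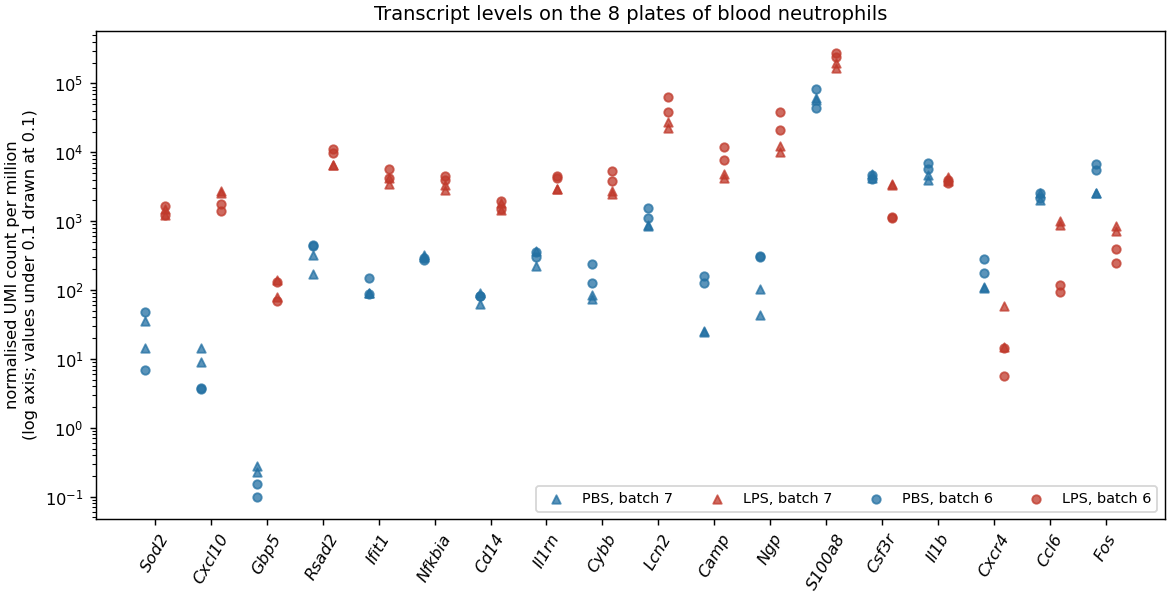
Normalised UMI counts (CPM, log axis) of 18 genes on each of the 8 plates, red for LPS and blue for PBS, circles for batch 6 and triangles for batch 7. The groups do not overlap for any gene shown except Il1b, and the 5 genes at the right end are lower on the LPS plates or, for Il1b, level.

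Sod2, the mitochondrial manganese superoxide dismutase that turns superoxide into hydrogen peroxide, stood at 6.88, 47.3, 14.4 and 35.9 CPM on the PBS plates and at 1661, 1229, 1238 and 1498 CPM on the LPS plates. Every LPS plate was above every PBS plate, and in relative terms the LPS plates lay closer to each other than the PBS plates did. The log2 fold change was 5.75 ± 0.57, adjusted p = 3.45e-05 (edgeR), with 6.27 in batch 6 and 5.88 in batch 7. Sod1, the cytosolic superoxide dismutase, was not called. In cells thinned to 5000 UMIs each, 65.9 to 89.5% of the cells on an LPS plate and 6.67 to 11.9% on a PBS plate held a Sod2 UMI, against 97.7 to 100% and 17.1 to 41.9% with all UMIs.

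Among the other 21 antioxidant, ferritin and metallothionein genes tested, 3 rose and 18 were not called, and the median of the list of 22 with Sod2 was -0.15 against -0.21 for all genes. With library size alone 3 of the 22 rose and 3 fell. Fth1, the heavy chain of the iron store ferritin, was at 6257, 8039, 5542 and 6072 CPM on the PBS plates and 75377, 52550.3, 43877 and 43957 CPM on the LPS plates, or 0.779 to 0.976% and 3.33 to 4.68% of UMIs (log2 fold change 3.04 ± 0.23, adjusted p = 4.24e-06, edgeR). Its partner Ftl1, the ferritin light chain, was at 3333, 5182, 7085 and 8199 CPM and 4723, 3205, 5259 and 5274 CPM, with overlapping groups and no call (adjusted p = 0.465, edgeR). Prdx5, a peroxidase of mitochondria and peroxisomes, rose from a mean of 719.7 ± 203 to 3972 ± 967 CPM (SD, n = 4 plates each, 2.46 ± 0.29, adjusted p = 0.000151, edgeR). The metallothionein Mt1 rose by 4.15 ± 1.09, adjusted p = 0.0304 (edgeR), a call lost without any of batch 7 PBS plate 1, batch 7 PBS plate 2, batch 7 LPS plate 1, batch 6 PBS plate 1 or batch 6 PBS plate 2 (adjusted p up to 0.12).

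Of 41 interferon effectors tested, 34 rose and none fell, and their median change was 3.90 against -0.21 for all genes. With library size alone 31 rose and 2 fell, and without the cells that carried lymphoid or platelet RNA 32 rose and none fell. The antiviral proteins of the IFIT, OAS and RIG-I-like families, the viperin gene Rsad2 and the membrane proteins Ifitm3 and Bst2 were all on this list, and 7 members (Ifitm1, Mx2, Oas1g, Slfn1, Phf11b, Ifi27l2a and Mndal) were not called. Near-identical copies such as Ifit3 and Ifit3b, the Oas1 genes and the Slfn family can trade reads, so the split between them is uncertain.

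Rsad2, whose product viperin blocks the replication of many viruses, stood at 449.7, 441, 327 and 174 CPM on the PBS plates and 9867, 11342, 6527 and 6461 CPM on the LPS plates. The lowest LPS plate exceeded the highest PBS plate, and 94.5 to 100% of thinned cells held a UMI of it on the LPS plates against 29.1 to 51.1% on the PBS plates (100% and 77.8 to 92.9% with all UMIs). Its change was 4.63 ± 0.26, adjusted p = 6.19e-07 (edgeR), with 4.57 in batch 6 and 4.76 in batch 7. Ifit1, which binds viral RNA that lacks the host cap mark, was at 149.9, 88.4, 89.8 and 90.3 CPM and 4242, 5719.5, 3419 and 4173 CPM (log2 fold change 5.39 ± 0.27, adjusted p = 4.14e-07, edgeR).

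Ifit2, of the same family, rose from a mean of 4.54 ± 5.27 to 739.5 ± 151 CPM (7.54 ± 0.67, adjusted p = 1.4e-05, edgeR). Ifi47, an interferon-inducible GTPase, rose from 46.4 ± 9.52 to 1587 ± 409 CPM, and Isg20, an exonuclease, from 111 ± 50.6 to 3353 ± 679.7 CPM. The ubiquitin-like Isg15 rose by 4.48, Usp18, the protease that removes Isg15 from proteins, by 4.28, and Herc6, the mouse ligase that attaches it, by 6.72. The RNA sensors Ddx58 (RIG-I), Ifih1 (MDA5) and Dhx58 (LGP2) rose by 3.37, 4.90 and 4.30 on the log2 scale. The sensor Zbp1 rose by 4.59. Slfn4, a myeloid Schlafen gene, was at 2680.2, 1302, 1129 and 1039.6 CPM on the PBS plates and 14969, 19250.2, 13633 and 12170.1 CPM on the LPS plates, with no overlap (3.34 ± 0.27, adjusted p = 8.18e-06, edgeR).

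Of 11 guanylate-binding and immunity-related GTPases, which attack the vacuoles and membranes of intracellular microbes, 7 rose, none fell, and the median was 3.25. Gbp2 stood at 92.2, 98.8, 19.9 and 33.2 CPM on the PBS plates and 2635, 2731, 1905 and 2359.5 CPM on the LPS plates (log2 fold change 5.56 ± 0.38, adjusted p = 3.11e-06, edgeR). Gbp5 was close to absent on the PBS plates, at 0, 0.155, 0.283 and 0.226 CPM, and at 68.7, 129.7, 139 and 78.6 CPM on the LPS plates (log2 fold change 9.20 ± 0.87, adjusted p = 2.4e-05, edgeR). Irgm1, Igtp, Gbp3, Gbp7 and Gbp9 rose as well, by 3.25, 2.73, 4.96, 3.65 and 3.43.

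Among 19 genes of interferon and JAK-STAT signalling itself, 7 rose and none fell, with a median of 0.97, and with library size alone 4 rose and 2 fell, with a median of 0.049. The transcription factors Stat2 and Irf7, which carry the interferon signal, rose from 45.7 ± 21.6 to 668 ± 164 and 173 ± 41.1 to 1684 ± 506 CPM, or by 3.88 and 3.28. The receptors Ifnar1, Ifnar2, Ifngr1 and Ifngr2 and the kinases Jak1 and Jak2 were not called. Feedback inhibitors of cytokine receptors rose in part. Cish stood at 0.586, 0.618, 0.283 and 0.451 CPM on the PBS plates and 224, 219, 64.3 and 164 CPM on the LPS plates (log2 fold change 8.38 ± 0.58, adjusted p = 3.11e-06, edgeR), and Socs1 rose by 5.39 ± 0.96, adjusted p = 0.00357 (edgeR). Socs3 was at 204, 298, 247 and 219 CPM and 393, 288, 803 and 527 CPM, where LPS plate 2 of batch 6 fell within the PBS range (adjusted p = 0.0665, edgeR).

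Because interferon and NF-kB targets rose together, the start regions of the risen members were searched for the binding letters of their factors. The windows ran from 250 bases before to 50 after the annotated start (RefSeq, build GRCm38.p6, a later build than the mm9 used for the counts). The interferon-stimulated response element (ISRE) core GAAANNGAAA, bound by complexes of Stat2 and Irf9 and by other Irf factors, was present on either strand in 59% of the risen genes of the 3 interferon lists (23 of 39 with a window), in 15.9% of all 447 risen genes with a window, in 4.59% of 5903 tested genes and in 3.44% of all 32851 windows. The NF-kB letters GGGNNNTTCC were present in 5 of 8 risen members of the NF-kB list (62.5%), in 20.5% of the risen interferon members, in 11.6% of all risen genes, in 7.67% of tested genes and in 5.56% of all windows. Of 13 risen granule genes with a window, 1 held the ISRE core and 0 the NF-kB letters. A match is a description of the letters and not evidence of binding. The lists were picked for their link to interferon or NF-kB, and no share was taken for members that did not rise. The shares therefore cannot tie the letters to the rise after LPS.

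Of the 10 members with the largest rises among those with a window, 7 held a match. The 5 below carry the ISRE core, and Nfkbia, added after its values were seen, is shown for the NF-kB letters. Ifit2 and Isg20 held 1 NF-kB match each, and Cish, Herc6 and Ifi47 held none. Ifit2 has 2 annotated windows and Isg20 has 3, and only 1 window of each is described here. Capitals mark the matches, some of them read on the opposite strand, and the pair of ISRE cores in Socs1 overlaps. All are written in the direction of the gene.
Gbp5 chr3:142496684-142496983 (plus strand): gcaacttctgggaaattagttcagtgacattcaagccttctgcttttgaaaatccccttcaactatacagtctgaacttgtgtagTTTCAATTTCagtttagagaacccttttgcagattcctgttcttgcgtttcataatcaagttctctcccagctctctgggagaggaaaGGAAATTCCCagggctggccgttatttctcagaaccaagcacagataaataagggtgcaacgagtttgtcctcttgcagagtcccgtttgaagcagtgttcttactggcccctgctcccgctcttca
Gbp2 chr3:142620413-142620712 (plus strand): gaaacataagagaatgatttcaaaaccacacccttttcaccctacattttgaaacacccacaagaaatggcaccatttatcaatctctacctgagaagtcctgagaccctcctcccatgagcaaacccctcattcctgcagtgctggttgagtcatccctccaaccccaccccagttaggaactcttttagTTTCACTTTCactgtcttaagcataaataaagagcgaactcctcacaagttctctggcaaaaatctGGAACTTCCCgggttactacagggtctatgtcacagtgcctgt
Ifit1 chr19:34640639-34640938 (plus strand): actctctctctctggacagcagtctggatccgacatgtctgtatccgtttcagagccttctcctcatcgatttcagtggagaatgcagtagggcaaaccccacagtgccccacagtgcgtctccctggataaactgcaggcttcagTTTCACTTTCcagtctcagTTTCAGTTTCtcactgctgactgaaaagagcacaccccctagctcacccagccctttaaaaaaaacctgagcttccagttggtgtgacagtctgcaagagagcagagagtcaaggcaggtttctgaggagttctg
Ifit3b chr19:34607707-34608006 (plus strand): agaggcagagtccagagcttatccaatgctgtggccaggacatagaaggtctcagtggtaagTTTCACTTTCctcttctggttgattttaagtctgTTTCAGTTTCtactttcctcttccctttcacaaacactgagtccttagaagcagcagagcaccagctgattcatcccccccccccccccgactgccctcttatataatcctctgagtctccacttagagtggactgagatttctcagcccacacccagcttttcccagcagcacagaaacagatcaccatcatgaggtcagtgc
Socs1 chr16:10785487-10785786 (minus strand): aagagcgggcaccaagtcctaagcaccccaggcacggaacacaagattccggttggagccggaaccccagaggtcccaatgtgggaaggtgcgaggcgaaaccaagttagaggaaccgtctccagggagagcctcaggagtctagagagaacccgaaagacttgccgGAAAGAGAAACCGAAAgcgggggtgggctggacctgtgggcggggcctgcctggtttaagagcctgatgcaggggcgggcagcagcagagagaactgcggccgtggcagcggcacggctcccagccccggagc
Nfkbia chr12:55492598-55492897 (minus strand): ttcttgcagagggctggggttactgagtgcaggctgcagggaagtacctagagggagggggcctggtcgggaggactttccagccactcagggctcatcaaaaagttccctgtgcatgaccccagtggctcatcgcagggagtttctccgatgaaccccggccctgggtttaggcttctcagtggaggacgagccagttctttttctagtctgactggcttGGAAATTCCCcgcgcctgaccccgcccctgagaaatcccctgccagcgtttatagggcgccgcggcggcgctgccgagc
Gbp5 and Gbp2 hold both motifs, whereas Ifit1, Ifit3b and Socs1 hold a pair of ISRE cores and no NF-kB match. The rises of these 6 genes were 9.20, 5.56, 5.39, 5.08, 5.39 and 3.60 in the order printed.

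**Figure D2:**
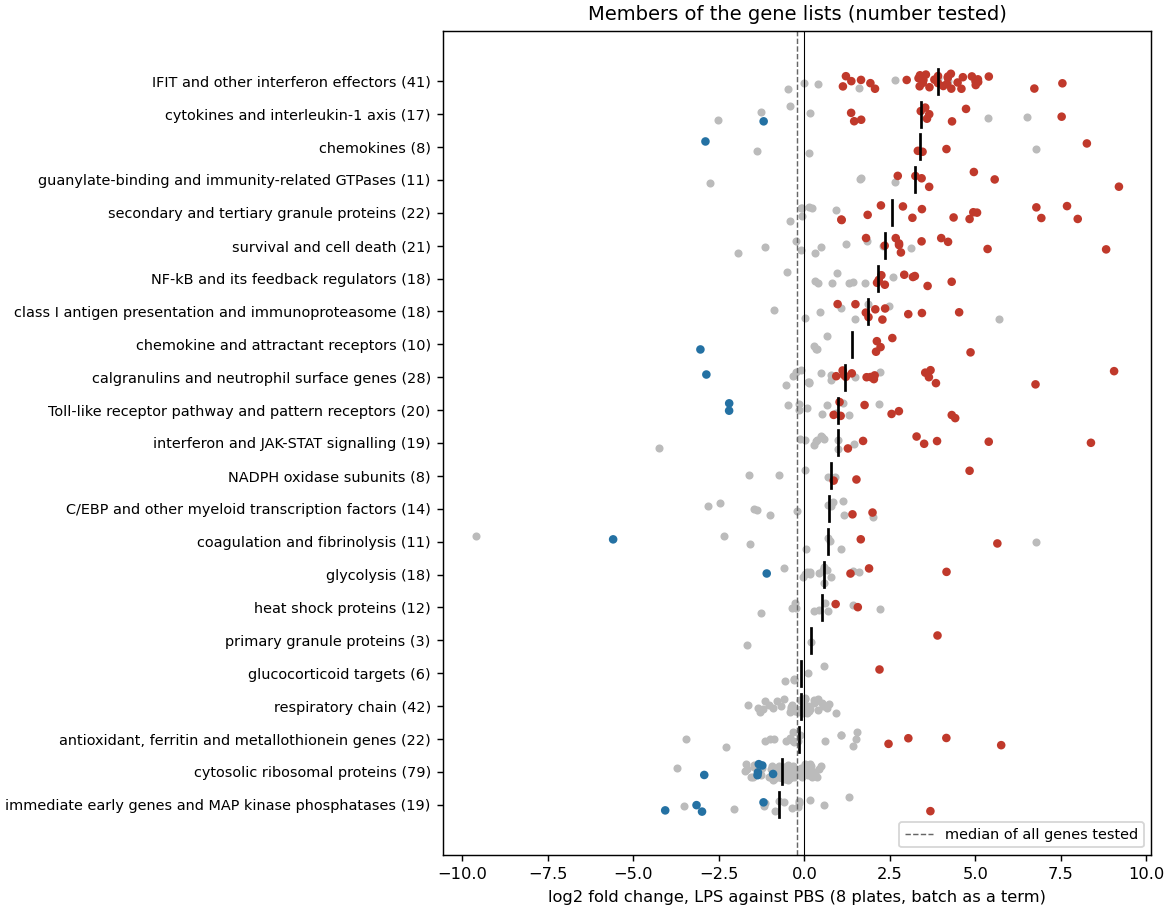
Log2 fold change of every tested member of the 23 gene lists, with called members in red (higher) or blue (lower), others in grey, a black bar at each list's median and a dashed line at the median of all 7409 genes. The interferon effectors and cytokine genes lie highest, and the ribosomal and immediate early genes lie lowest.

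Of 20 Toll-like receptor pathway and pattern receptor genes, 8 rose and 2 fell, with a median of 0.98, and with library size alone 4 rose and 2 fell. Cd14, which hands LPS to its receptor, stood at 81.1, 82.7, 62.2 and 91.8 CPM on the PBS plates and 1995, 1494, 1434 and 1834 CPM on the LPS plates, well apart (log2 fold change 4.41 ± 0.26, adjusted p = 8.86e-07, edgeR). Tlr4 and its partner Ly96 were not called. Tlr2, the receptor of bacterial lipoproteins, rose from 79.4 ± 50.5 to 508 ± 78.6 CPM, and Irak3, a kinase-like protein that restrains the pathway, from 28.3 ± 28.6 to 457 ± 85.4 CPM (4.31 ± 0.53, adjusted p = 0.0002, edgeR). The 2 falls were Clec7a (dectin-1), a receptor of fungal glucans, at 1161, 1089, 1293 and 921 CPM against 127, 87.04, 626 and 478 CPM (-2.20 ± 0.46, adjusted p = 0.00947, edgeR), and the inflammasome sensor Nlrp3, with a mean of 132 ± 70.3 to 30.1 ± 17.5 CPM (-2.20 ± 0.62, adjusted p = 0.0433, edgeR). The call of Clec7a was lost without batch 6 LPS plate 1 (adjusted p = 0.0622), and that of Nlrp3 without any of batch 7 PBS plate 1, batch 6 PBS plate 1, batch 6 PBS plate 2, batch 6 LPS plate 1 or batch 6 LPS plate 2 (adjusted p up to 0.173). Clec4e (Mincle) rose by 0.86 ± 0.25, adjusted p = 0.0486 with TMM and had -0.06 with library size alone, so its direction depends on the scale, and its call was lost without any of batch 7 PBS plate 1, batch 7 PBS plate 2, batch 7 LPS plate 1, batch 7 LPS plate 2, batch 6 PBS plate 1 or batch 6 LPS plate 1 (adjusted p up to 0.142).

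Of 18 genes of NF-kB and its regulators, 9 rose, none fell, and the median was 2.15. With library size alone 5 rose and 1 fell. Nfkbia, the inhibitor that holds NF-kB in the cytoplasm and is itself an NF-kB target, stood at 293, 276, 305 and 320.2 CPM on the PBS plates and 4489, 3905, 3384 and 2875 CPM on the LPS plates. The 4 PBS plates lay within a narrow band, and the LPS plates all lay far above it (log2 fold change 3.60 ± 0.23, adjusted p = 1.66e-06, edgeR). Thinned cells with an Nfkbia UMI made up 79.1 to 97.8% on the LPS plates and 23.8 to 43.2% on the PBS plates (98.9 to 100% and 72.6 to 84.1% with all UMIs). Bcl3, an atypical inhibitor of the family, rose by 2.92, the subunit Relb by 3.23, the ubiquitin ligase Birc3 by 2.35 and the A20-binding protein Tnip1 by 2.25. The inhibitor Nfkbie rose by 4.31, the subunit Nfkb2 by 2.18 and Cflar, an inhibitor of caspase-8, by 2.12. The subunits Nfkb1, Rel and Rela were not called, nor were the regulators Nfkbib, Nfkbiz, Zc3h12a and Zfp36, or Tnfaip2 and Traf1. Tnfaip3 (A20), a deubiquitinase that ends the signal, had 3.17 ± 0.75, adjusted p = 0.0185 (edgeR), a call lost without batch 7 PBS plate 1 or batch 7 PBS plate 2 (adjusted p up to 0.0655).

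Of 17 cytokine and interleukin-1 genes, 10 rose and 1 fell, with a median of 3.40, and with library size alone 5 rose and 4 fell. Il1b, the gene of interleukin-1 beta, was high in both groups and not called. It stood at 5814, 7017, 3956 and 4728 CPM on the PBS plates and 3969, 3644, 4381 and 3884 CPM on the LPS plates, with overlap (adjusted p = 0.294, edgeR). Il1a, the gene of the agonist interleukin-1 alpha, had the largest called change of the list, from few UMIs. It stood at 0, 0, 0.141 and 0.451 CPM on the PBS plates, with 3 UMIs on them together, and at 25.99, 0, 23.9 and 37.05 CPM on the LPS plates, where plate 2 of batch 6 had none (fitted log2 fold change 7.52 ± 2.14, adjusted p = 0.0436, edgeR). That call was lost when any of 7 plates was left out (adjusted p up to 0.192). The receptor chain Il1rap, needed for interleukin-1 signalling, rose by 1.66 ± 0.40, adjusted p = 0.02 (edgeR), a call lost without any of batch 7 PBS plate 2, batch 6 PBS plate 1 or batch 6 LPS plate 1 (adjusted p up to 0.0633).

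Both antagonists on the list rose as well. Il1rn, the receptor antagonist, stood at 301, 362, 225 and 363 CPM on the PBS plates and 4574, 4258, 2954 and 2962 CPM on the LPS plates (log2 fold change 3.53 ± 0.25, adjusted p = 3.11e-06, edgeR). Il1r2, a decoy receptor that binds interleukin-1 without signalling, stood at 210, 195, 237 and 358 CPM and 3824, 3429, 2099.6 and 2684 CPM (log2 fold change 3.58 ± 0.30, adjusted p = 1.04e-05, edgeR). Neither gene had overlapping groups.

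Il18bp, which neutralises interleukin-18, rose from 13.1 ± 6.67 to 346 ± 134 CPM (4.73 ± 0.47, adjusted p = 3.76e-05, edgeR). Acod1, the enzyme that makes itaconate, rose from 59.8 ± 55.3 to 1047 ± 126 CPM and Tnf from 13.7 ± 12.9 to 176 ± 70.5 CPM. Tnf had 3.65 ± 0.75, adjusted p = 0.00847 (edgeR). Csf3r, the receptor of G-CSF, fell from 4456 ± 361 to 2257 ± 1304 CPM (-1.19 ± 0.30, adjusted p = 0.0274, edgeR), with -1.96 in batch 6 and -0.41 in batch 7. That call was lost without any of batch 7 PBS plate 1, batch 6 PBS plate 1, batch 6 PBS plate 2, batch 6 LPS plate 1 or batch 6 LPS plate 2 (adjusted p up to 0.12). Csf2rb, the shared receptor chain for GM-CSF, interleukin-3 and interleukin-5, rose by 1.46 ± 0.24, adjusted p = 0.00198 (edgeR).

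Of 8 chemokine genes, 4 rose and 1 fell. Cxcl10, an interferon-induced ligand of Cxcr3 on T cells, stood at 3.81, 3.71, 9.04 and 14.4 CPM on the PBS plates and 1401, 1749.7, 2606 and 2769.7 CPM on the LPS plates, with no overlap (log2 fold change 8.26 ± 0.35, adjusted p = 1.39e-07, edgeR). In thinned cells 51.6 to 74.7% on the LPS plates held a Cxcl10 UMI against 3.57 to 6.67% on the PBS plates (96.5 to 100% and 22.6 to 43.02% with all UMIs), so part of the LPS cells had none at this depth. Cxcl2, a ligand of the neutrophil receptor Cxcr2, stood at 345, 368, 15.3 and 34.3 CPM and 1820.2, 1118, 813 and 662 CPM (log2 fold change 3.46 ± 0.58, adjusted p = 0.0024, edgeR). Its PBS level was far higher in batch 6 than in batch 7, and the same was seen for Ccl4, at 530.2, 187, 15.6 and 25.7 CPM against 1890.4, 899, 1287 and 2202 CPM on the LPS plates (4.15 ± 0.93, adjusted p = 0.0137, edgeR). The call of Ccl4 was lost without batch 7 PBS plate 1 or batch 7 PBS plate 2 (adjusted p up to 0.0783).

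Ccl6, a chemokine of resting myeloid cells, was the fall. It stood at 2171, 2536, 2562 and 2057 CPM on the PBS plates and 117, 92.3, 1004 and 881 CPM on the LPS plates, lower on all 4 and far lower in batch 6 (log2 fold change -2.89 ± 0.59, adjusted p = 0.00804, edgeR). The difference between batches was itself past the threshold (3.20 ± 0.40, adjusted p = 0.00673, interaction term, edgeR). Without batch 6 LPS plate 1 the adjusted p of the LPS effect was 0.0502.

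Of 10 chemokine and attractant receptors, 5 rose and 1 fell, and with library size alone 3 rose and 1 fell. Fpr1 and Fpr2, which sense formylated bacterial peptides, rose from 259 ± 143 to 1127 ± 133 CPM and 271 ± 111 to 1601 ± 175 CPM, by 2.12 ± 0.39, adjusted p = 0.00458 and 2.57 ± 0.31, adjusted p = 0.000183 (edgeR). Ltb4r1, the leukotriene B4 receptor, rose by 2.10 ± 0.38, adjusted p = 0.00396 (edgeR). Cxcr2, the receptor that draws neutrophils out of the marrow, was not called (0.36 ± 0.21, adjusted p = 0.346, edgeR). Cxcr4, the receptor that holds them in it and marks aged neutrophils, stood at 284, 177, 108 and 111 CPM on the PBS plates and 5.63, 14.6, 58.2 and 15.04 CPM on the LPS plates, lower on all 4 (log2 fold change -3.04 ± 0.74, adjusted p = 0.0216, edgeR). The call of Cxcr4 was lost without any of batch 6 PBS plate 1, batch 6 PBS plate 2, batch 6 LPS plate 1 or batch 6 LPS plate 2 (adjusted p up to 0.0959).

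Secondary and tertiary granule genes were higher in blood after LPS. Of 22 tested, 15 rose and none fell, with a median of 2.56. With library size alone 12 rose and 3 fell, and without the cells with lymphoid or platelet RNA 13 rose. Together Lcn2, Ngp, Camp, Ltf and Chil3 took 3.27 to 8.14% of UMIs on the LPS plates and 0.131 to 0.264% on the PBS plates. Of the 9 genes on the primary granule list only 3 were tested, and Mpo, Elane and Prtn3 were not among them. Serpinb1a, a protease inhibitor that the list includes and not itself a granule protease, rose (3.88 ± 0.44, adjusted p = 9.72e-05, edgeR). Ctsc and Prss57 were not called, so primary granule genes were barely covered.

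Lcn2, an iron-sequestering protein of secondary granules, stood at 1098, 1540.4, 861 and 894 CPM on the PBS plates and 62538, 39032, 22364 and 27550.2 CPM on the LPS plates (log2 fold change 5.05 ± 0.27, adjusted p = 6.19e-07, edgeR). Ngp, neutrophilic granule protein, stood at 303, 308, 43.7 and 104 CPM and 38480.1, 20873, 10155 and 12296 CPM (log2 fold change 6.93 ± 0.39, adjusted p = 6.19e-07, edgeR). Camp, the cathelicidin, stood at 162, 128, 24.4 and 25.7 CPM and 11959.6, 7784, 4255 and 4785 CPM (log2 fold change 6.78 ± 0.38, adjusted p = 6.19e-07, edgeR). None of these groups overlapped. For both Ngp and Camp the PBS plates of batch 6 were above those of batch 7, and so were the LPS plates.

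Ltf, lactoferrin, stood at 80.4, 65.1, 3.53 and 6.54 CPM on the PBS plates and 8457, 6556, 1722 and 2693 CPM on the LPS plates (7.68 ± 0.52, adjusted p = 2.75e-06, edgeR). The gelatinase-granule and collagenase genes divided. Mmp8, neutrophil collagenase, rose from 692 ± 188 to 7389 ± 998 CPM (3.44 ± 0.26, adjusted p = 4.92e-06, edgeR), whereas Mmp9, gelatinase B, was not called. Cd177, a surface protein of secondary granules, rose by 4.36 ± 0.51, adjusted p = 0.000142 (edgeR), and Retnlg, a resistin-like protein of blood neutrophils, by 1.85 ± 0.31, adjusted p = 0.00207 (edgeR). The lysozyme gene Lyz2, whose close copy Lyz1 may share its reads, and Anxa1 rose by 1.08 and 1.09, and both calls were lost without any of batch 7 PBS plate 1, batch 7 PBS plate 2, batch 7 LPS plate 2 or batch 6 LPS plate 1 (adjusted p up to 0.0878 and 0.0886).

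The share of cells with a UMI was counted for 3 of these granule genes. In cells thinned to equal depth, 100% of the LPS cells and 82.2 to 96.4% of the PBS cells held an Lcn2 UMI (100% and 97.7 to 100% with all UMIs). For Camp the shares were 76.9 to 100% and 8.89 to 69.3% (98.8 to 100% and 40 to 97.7% with all UMIs). For Ngp they were 95.3 to 100% and 8.89 to 80.7% (98.8 to 100% and 50 to 100%), and the lower PBS values were those of batch 7. The 2 highest cells of an LPS plate held 16.8 to 41.95% of its Ltf UMIs and 15.5 to 39.3% of its Chil3 UMIs. The same well codes were in use on every plate, with 69 of 95 shared by all 8, and the part of reads crossing between plates in these shares was not tested.

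**Figure D3:**
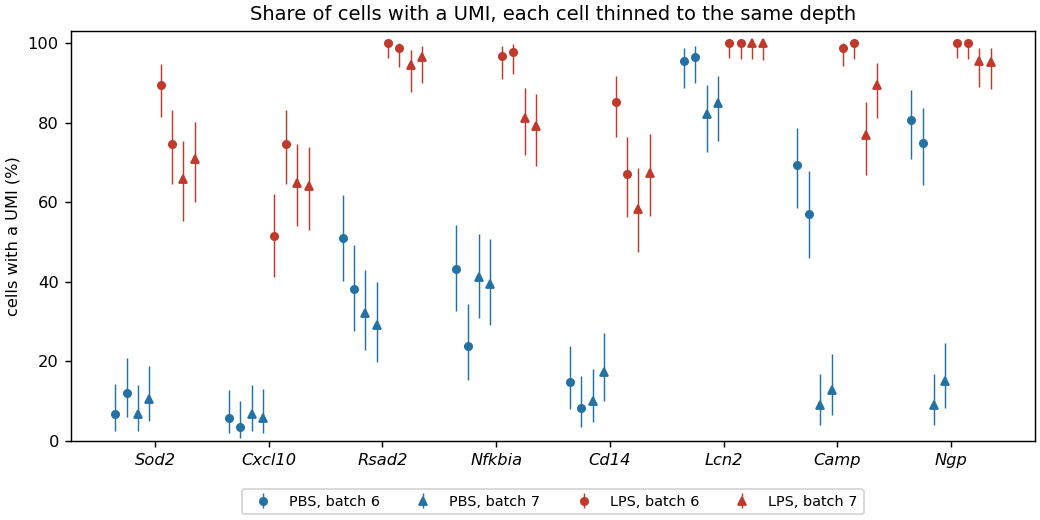
Share of cells with at least 1 UMI of 8 genes on each plate after thinning every cell to 5000 UMIs, with exact Clopper-Pearson intervals at 95% that cover counting error only. For Sod2, Cxcl10, Rsad2, Nfkbia and Cd14 the LPS plates (red) lie above the PBS plates (blue), and for Camp and Ngp the PBS plates of batch 6 and batch 7 stand apart.

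Of 28 calgranulin and neutrophil surface genes, 15 rose and 1 fell, with a median of 1.18, and with library size alone 8 rose and 5 fell, with a median of 0.27. S100a8 stood at 43617, 82868, 57282 and 62501 CPM on the PBS plates and 272914, 244368, 165046 and 200077 CPM on the LPS plates, and S100a9 at 24655, 45739.6, 29049.9 and 32302 CPM and 188903, 135659, 106256 and 123462 CPM. The changes were 1.82 ± 0.26, adjusted p = 0.000585 and 2.06 ± 0.26, adjusted p = 0.000205 (edgeR), and they were 0.91 and 1.14 with library size alone. Ly6g, the lineage marker of mouse neutrophils, rose from 46.6 ± 54.2 to 406 ± 60.9 CPM (3.64 ± 0.68, adjusted p = 0.00478, edgeR). Wfdc21, a whey acidic protein family gene, rose from 878 ± 385 to 10071 ± 1489 CPM (3.53 ± 0.36, adjusted p = 4.32e-05, edgeR). The adhesion gene Icam1 rose by 3.85 ± 0.75, adjusted p = 0.00611 (edgeR) and the IgG receptor genes Fcgr3 and Fcgr4 by 1.21 and 2.03. The integrin gene Itga4, a chain of the receptor for VCAM-1, fell from 174 ± 24.6 to 24.4 ± 10.7 CPM (-2.86 ± 0.47, adjusted p = 0.00198, edgeR). Selplg, a ligand of selectins, was not called.

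Among 14 C/EBP and other myeloid transcription factors, only Mxd1 and Ets2 rose and none fell, and with library size alone 1 rose and 1 fell. Mxd1, a Max partner of terminally maturing granulocytes, stood at 923, 934, 752 and 856 CPM and 3714, 3563, 3137 and 3369 CPM, tight within both groups (log2 fold change 1.99 ± 0.20, adjusted p = 3.1e-05, edgeR). Cebpa, Cebpb, Cebpd, Cebpe and Spi1 were not called. Of 8 subunits and partners of the phagocyte NADPH oxidase, 3 rose, and with library size alone 1 rose and 1 fell. Cybb, its catalytic subunit gp91phox, stood at 238, 127, 84.8 and 75.1 CPM on the PBS plates and 3853, 5291, 2449 and 2713 CPM on the LPS plates (log2 fold change 4.83 ± 0.29, adjusted p = 8.86e-07, edgeR). Its membrane partner Cyba was not called, at 1120.2 ± 302 to 2165 ± 860.3 CPM (adjusted p = 0.0687, edgeR), nor was the cytosolic subunit Ncf1. The cytosolic subunit Ncf4 rose by 1.52 ± 0.30, adjusted p = 0.00705 (edgeR). Rac2 rose by 0.86 ± 0.23, adjusted p = 0.0313 with TMM but had -0.07 with library size alone, so its direction depends on the scale. The call of Rac2 was lost without any of batch 7 PBS plate 1, batch 7 PBS plate 2, batch 7 LPS plate 2, batch 6 PBS plate 1 or batch 6 LPS plate 1 (adjusted p up to 0.097).

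Of 21 survival and cell death genes, 11 rose and none fell, with a median of 2.35, and with library size alone 8 rose and 1 fell. Bcl2l1, the gene of the survival protein Bcl-xL, rose from 27.6 ± 28.9 to 302 ± 123 CPM (adjusted p = 0.000494), and the survival gene Bcl2a1b by 5.36 ± 0.84, adjusted p = 0.00145 (edgeR). Bcl2a1b has near-identical neighbours, so reads may be divided between them. Casp1, Casp4 and Casp8 rose by 2.35, 2.77 and 3.43. Mlkl, the effector of necroptosis, rose from 0.0773 ± 0.155 to 39.1 ± 19.4 CPM, with 2 UMIs on the PBS plates together (8.82 ± 1.52, adjusted p = 0.00274, edgeR). Mcl1, on which neutrophil survival is known to depend, was not called (-0.24 ± 0.22, adjusted p = 0.589, edgeR), and neither were Bax, Bak1 or Gsdmd. The death-promoting genes Bcl2l11 (Bim) and Fas rose, by 2.82 ± 0.79, adjusted p = 0.0415 and by 1.80 ± 0.44, adjusted p = 0.0225 (edgeR). The call of Bcl2l11 was lost when any of 7 plates was left out (adjusted p up to 0.151), and that of Fas without batch 6 PBS plate 1 or batch 6 LPS plate 2 (adjusted p up to 0.0662). Cd47, the signal that protects cells from engulfment, rose from 261 ± 38.9 to 1722 ± 588 CPM (2.67 ± 0.28, adjusted p = 4.9e-05, edgeR).

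Of 18 genes of class I antigen presentation and the immunoproteasome, 10 rose and none fell, with a median of 1.87, and with library size alone 6 rose and 1 fell. B2m, the shared light chain, stood at 3968, 5107, 2619.5 and 2796 CPM and 12028, 8244, 8519 and 10716 CPM (log2 fold change 1.49 ± 0.24, adjusted p = 0.0015, edgeR), with 0.56 and adjusted p = 0.0902 with library size alone. H2-K1 rose by 1.80 ± 0.22, adjusted p = 0.000169 (edgeR), whereas H2-D1 was not called. The transporter Tap1 and the transactivator Nlrc5 rose by 3.04 and 4.53, the proteasome subunit Psmb8 by 2.36 and its activator Psme2 by 3.44. The class I genes are close relatives of one another, so that reads may be shared.

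Among 19 immediate early genes and MAP kinase phosphatases, 1 rose and 4 fell, with a median of -0.74. With library size alone 1 rose and 11 fell. The shares over all genes were 7.34% higher and 3.24% lower with TMM, and 3.77% and 13.8% with library size alone. Fos, an AP-1 subunit that many stimuli induce rapidly, stood at 5517, 6816, 2601 and 2568 CPM on the PBS plates and 250, 389.9, 731 and 845 CPM on the LPS plates, lower on all 4 (log2 fold change -2.99 ± 0.48, adjusted p = 0.00179, edgeR). The change was -4.29 in batch 6 and -1.72 in batch 7, and this difference between batches was past the threshold (2.56 ± 0.41, adjusted p = 0.0348, edgeR). Egr1 fell from 214 ± 35.6 to 20.2 ± 19.3 CPM (-4.07 ± 0.76, adjusted p = 0.00458, edgeR). Atf3 fell by 3.15 and Btg1 fell by 1.19, with groups that overlapped. The call of Atf3 was lost without batch 7 PBS plate 1 or batch 6 PBS plate 1 (adjusted p up to 0.0692), and that of Btg1 without any of batch 7 PBS plate 1, batch 7 PBS plate 2, batch 6 PBS plate 1 or batch 6 LPS plate 1 (adjusted p up to 0.0802). Dusp1, the phosphatase that switches off p38, was not called (-0.17 ± 0.24, adjusted p = 0.752, edgeR). Ier3, the rise, went from 70.2 ± 42.04 to 801 ± 284 CPM (3.69 ± 0.44, adjusted p = 0.000153, edgeR).

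Of 42 respiratory chain genes 0 were called by edgeR, with 5 at an unadjusted p under 0.05, and 1 each passed by DESeq2 and limma voom. Their median was -0.11, and 14 fell with library size alone. Ndufs8, a complex I subunit that was not on the list, fell by 5.10 ± 1.27, adjusted p = 0.0238 (edgeR) and is described with the largest falls. Of 79 ribosomal protein genes, 6 fell and none rose, with a median of -0.65, and 57 fell with library size alone. Among all genes tested, 7.34% rose and 3.24% fell with TMM, and 3.77% rose and 13.8% fell with library size alone. Ribosomal transcripts took 0.889 to 1.07% of UMIs on the LPS plates and 2.28 to 2.71% on the PBS plates. Of 18 glycolysis genes, 3 rose and 1 fell, and with library size alone 1 rose and 4 fell. Pfkfb3, which makes the activator of phosphofructokinase, rose by 4.16 ± 0.81, adjusted p = 0.00652 (edgeR), and the glucose carrier Slc2a3 fell by 1.10 ± 0.25, adjusted p = 0.0165 (edgeR). The Slc2a3 call was lost without any of batch 6 PBS plate 1, batch 6 PBS plate 2, batch 6 LPS plate 1 or batch 6 LPS plate 2 (adjusted p up to 0.0759). Of 12 heat shock genes 2 rose, Hspa8 and Dnaja1, and neither was called with library size alone or without any of 7 plates (adjusted p up to 0.102 and 0.137). Of 6 glucocorticoid targets only Fkbp5 rose (2.18 ± 0.45, adjusted p = 0.00905, edgeR), and Tsc22d3 was not called.

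Of 11 coagulation and fibrinolysis genes, 2 rose and 1 fell, and with library size alone 1 rose and 2 fell. Over all genes the shares were 7.34% higher and 3.24% lower, and 3.77% and 13.8% with library size alone. Thbs1, thrombospondin 1, stood at 157, 36.2, 7.07 and 49.9 CPM on the PBS plates and 3242, 2419.9, 1693 and 3179 CPM on the LPS plates (log2 fold change 5.64 ± 0.71, adjusted p = 0.000224, edgeR), with 7.79, adjusted p = 2.71e-07 without the cells that carried lymphoid or platelet RNA. Platelets also hold thrombospondin, and their part in this value was not tested further. Plaur, the urokinase receptor, rose by 1.65 ± 0.31, adjusted p = 0.00458 (edgeR). Thbd, thrombomodulin, fell from 33.7 ± 28.2 to 0.763 ± 0.566 CPM (-5.59 ± 1.47, adjusted p = 0.0306, edgeR), a call lost without any of batch 7 PBS plate 1, batch 7 LPS plate 1, batch 7 LPS plate 2, batch 6 PBS plate 2, batch 6 LPS plate 1 or batch 6 LPS plate 2 (adjusted p up to 0.15). The tissue factor gene F3 was not called.

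Ordered by size among called genes with at least 50 CPM and no overlap of the groups, the 12 largest rises were 2010005H15Rik, Gbp5, Slfn9, Lipg, Cish, Saa3, Cxcl10, Chil3, Nos2, Fmnl2, Prnp and Ltf. Lipg, endothelial lipase, stood at 2.93, 1.7, 1.55 and 1.13 CPM on the PBS plates and 687, 766, 515 and 799 CPM on the LPS plates (log2 fold change 8.56 ± 0.39, adjusted p = 1.91e-07, edgeR). Fmnl2, a formin that builds actin filaments, stood at 1.02, 1.85, 0.283 and 2.71 CPM and 329, 374, 326 and 247 CPM (log2 fold change 7.79 ± 0.61, adjusted p = 6.03e-06, edgeR).

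Saa3, an acute-phase serum amyloid made outside the liver, ranged widely on the LPS plates, with levels of 4.68, 5.1, 3.82 and 3.38 CPM on the PBS plates and 352, 3612, 260.3 and 1687 CPM on the LPS plates (log2 fold change 8.37 ± 0.86, adjusted p = 4.48e-05, edgeR). Nos2, inducible nitric oxide synthase, stood at 0.293, 0.618, 0.141 and 0.451 CPM and 176, 97.7, 51.9 and 63.3 CPM (log2 fold change 7.92 ± 0.77, adjusted p = 3.07e-05, edgeR). The 2 highest cells of an LPS plate held 26.4 to 72.3% of its Nos2 UMIs, against 7.88 to 32.9% for Lipg, 41.5 to 84.3% for Saa3 and 51.05 to 99.2% for 2010005H15Rik. Lipg was thus less confined to few cells than 2010005H15Rik on every LPS plate, and 2010005H15Rik rested on few. On the batch 7 LPS plates 2 cells still held 30.6 and 32.9% of the Lipg UMIs. Across the 544 rises, 37 had over 50% of their UMIs in 2 cells on every LPS plate. The median over all 544 rises of the mean share per plate was 26.1%.

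The 12 largest falls were Ms4a4b, Ms4a6b, Gimap4, Nkg7, 5430425K12Rik, Gimap6, Ndufs8, Haus8, Ptprcap, Dnajc15, Svip and S100a10. Several are genes of lymphocytes. Nkg7, a granule protein of NK and cytotoxic T cells, stood at 215, 41.6, 90.03 and 30.01 CPM on the PBS plates and 0.134, 0.6, 0.191 and 0.449 CPM on the LPS plates (log2 fold change -7.98 ± 0.98, adjusted p = 0.000187, edgeR). Ms4a4b, of T cells, stood at 113, 16.7, 80.8 and 119 CPM and 0.134, 0, 0 and 0.225 CPM (log2 fold change -9.56 ± 1.16, adjusted p = 0.000173, edgeR). The 2 highest cells of a PBS plate held 89.96 to 96.99% of its Nkg7 UMIs and 88.2 to 98.95% of its Ms4a4b UMIs. These falls rest on few cells per plate. Gimap4 and Gimap6, GTPases of lymphocytes, had changes of -8.23 ± 1.20, adjusted p = 0.000803 and -6.68 ± 1.28, adjusted p = 0.00567 (edgeR).

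S100a10, the annexin A2 partner, was less confined to few cells, at 142, 136, 56.96 and 61.1 CPM and 9.25, 0.3, 3.63 and 2.69 CPM (log2 fold change -4.54 ± 0.86, adjusted p = 0.00526, edgeR), with 32.5 to 84.6% of UMIs in 2 cells. Across the 240 falls, 101 had over 50% of their UMIs in 2 cells on every PBS plate. The median over all 240 falls of the mean share per plate was 55.8%. The calls of Gimap6, Dnajc15, Ndufs8, Haus8, Ptprcap and Svip were each lost when at least 1 plate was left out, with adjusted p up to 0.0575, 0.0667, 0.0854, 0.123, 0.0638 and 0.0678. The plates were batch 6 PBS plate 1 for Gimap6, batch 6 PBS plate 2 for Dnajc15, batch 6 LPS plate 1 or batch 6 LPS plate 2 for Svip and any of batch 7 PBS plate 2, batch 6 PBS plate 1, batch 6 LPS plate 1 or batch 6 LPS plate 2 for Ndufs8. They were any of batch 7 PBS plate 1, batch 7 LPS plate 1, batch 6 PBS plate 2 or batch 6 LPS plate 1 for Ptprcap and any of batch 7 PBS plate 1, batch 7 LPS plate 1, batch 6 PBS plate 1, batch 6 PBS plate 2, batch 6 LPS plate 1 or batch 6 LPS plate 2 for Haus8.

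**Figure D4:**
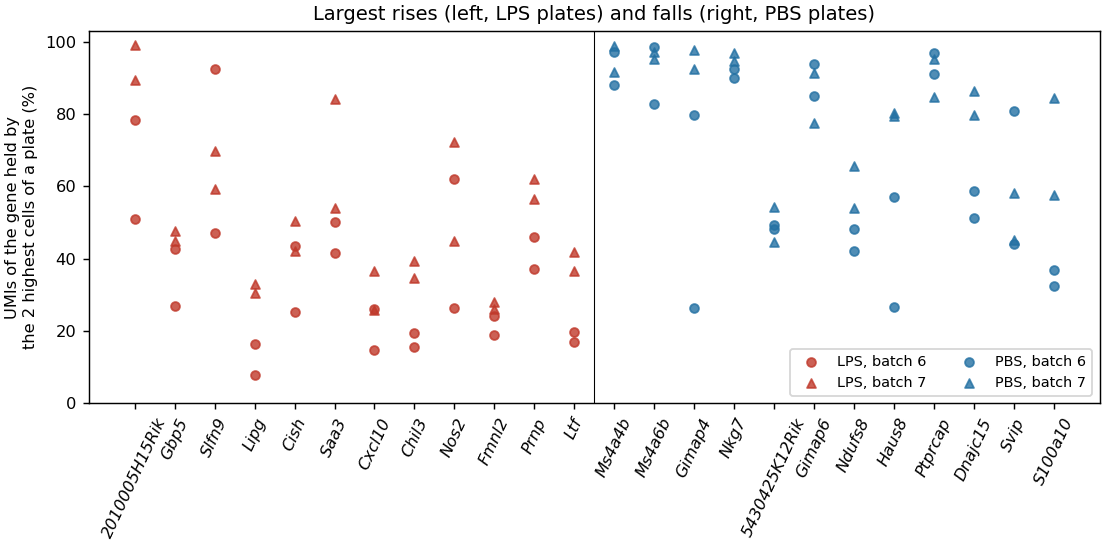
Share of a gene's UMIs that the 2 highest cells of a plate held, for the 12 largest rises on the LPS plates (left, red) and the 12 largest falls on the PBS plates (right, blue). Ms4a4b, Ms4a6b, Nkg7 and Ptprcap on the right lie near the top on all PBS plates, whereas Lipg and Fmnl2 on the left lie at no more than 32.9% on all LPS plates.

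Levels of markers of other blood cells differed between the groups, and their part in the falls above was examined only by leaving cells out. All 8 neutrophil markers were present on every plate. The T or NK cell markers summed to 268 to 910 CPM (library size) on the PBS plates and 1.87 to 43.6 CPM on the LPS plates, the platelet markers to 311 to 2860 against 1.66 to 129.5 CPM, and the B cell markers to 80.6 to 202 against 0.083 to 96.4 CPM. Of the T or NK cell markers tested, 3 of 5 were called lower. Of the B cell markers 0 of 3 were called by edgeR or DESeq2 and 1 by limma voom, with 0 at an unadjusted p under 0.05, and of the platelet markers 0 of 6 were called by edgeR, with 4 at an unadjusted p under 0.05, 4 by DESeq2 and 3 by limma voom. Cd79a was at 0 on 2 LPS plates, and Gp9 on 2. The monocyte or macrophage markers, most of whose sum on the LPS plates was Ly6c2, a gene also on the list of neutrophil surface genes, summed to 233 to 672 CPM on the PBS plates and 853 to 1468 on the LPS plates, with F13a1 at 0 on all 4 of the latter. Of the 5 tested, Ly6c2 alone was called (3.69 ± 0.36, adjusted p = 2.99e-05, edgeR), and their part in the rises was not tested. LPS plate 2 of batch 6 held the highest B and T cell levels of the LPS plates, and without that plate 427 genes rose and 119 fell. Cells with at least 5 lymphoid marker UMIs numbered 46, 13, 15 and 6 on the PBS plates and 1, 23, 1 and 1 on the LPS plates. Without these cells 462 genes rose and 160 fell, and 433 of the 544 rises and 134 of the 240 falls were called again with none reversed.

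When cells with platelet marker UMIs were also left out, 370 genes rose and 88 fell, and 335 of the rises and 71 of the falls were called again, none with the other sign. This left out 75, 50, 32 and 17 cells of the 88, 84, 90 and 86 on the PBS plates. On the LPS plates it left out 1, 25, 9 and 4 cells. The PBS plates thus lost far more cells, and how many of these were neutrophils was not tested. Both alternatives were chosen after the data were seen. Fos (-3.11, adjusted p = 0.00118), Ccl6 (-2.89, adjusted p = 0.00798), Clec7a (-2.21, adjusted p = 0.0183) and Csf3r (-1.11, adjusted p = 0.0224, edgeR) kept their calls there, and Sod2 (5.73, adjusted p = 0.000181), Cxcl10 (7.86, adjusted p = 5.97e-08) and Camp (6.31, adjusted p = 5.97e-08, edgeR) did too. Hepatocyte RNA was present in batch 7 at 894 to 2534 CPM and at no more than 1.08 CPM in batch 6, in both groups. Of the 8 hepatocyte genes, 0 were called by edgeR, 0 had an unadjusted p under 0.05, and 0 passed by DESeq2 or limma voom.

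The batches were then set against each other. In 4934 of the 7409 genes the change had the same direction in both, 2100 higher and 2834 lower. The LPS effect differed between batches, by the interaction term of the model, in 9 genes (0.121%), of which 6 were also called for LPS. Ube2l6, the conjugating enzyme of Isg15, stood at 0.439, 0.464, 16.4 and 34.5 CPM on the PBS plates and 863, 548, 440.5 and 354 CPM on the LPS plates, so that its rise was 9.79 in batch 6 and 4.03 in batch 7 (-6.58 ± 0.71, adjusted p = 0.00229 for the difference, edgeR). Orm1, an acute-phase glycoprotein, stood at 2.63, 1.7, 22.5 and 32.5 CPM and 807, 775, 94.7 and 83.1 CPM, and rose by 8.33 in batch 6 and 1.70 in batch 7 (-6.80 ± 0.60, adjusted p = 0.000774 for the difference, edgeR).

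For both genes the PBS level was lower in batch 6. Chil3, a chitinase-like protein of neutrophils, showed the opposite, at 121, 92.7, 2.54 and 2.71 CPM on the PBS plates and 9628, 10731, 1519 and 2909.6 CPM on the LPS plates, with a rise of 6.58 in batch 6 and 9.47 in batch 7 (3.14 ± 0.49, adjusted p = 0.0309 for the difference, edgeR). Ccrl2, a receptor that presents chemerin, stood at 67.5, 35.1, 1.7 and 3.16 CPM and 346, 364, 297 and 424 CPM, with a rise of 2.86 in batch 6 and 7.06 in batch 7 (4.44 ± 0.68, adjusted p = 0.0309 for the difference, edgeR). The call of Orm1 for the LPS effect itself was lost when any of 6 plates was left out (adjusted p up to 0.151). Ctla2a, the platelet chemokine Pf4 and the lipid carrier Apoe were not called for LPS. Their changes were -7.30 in batch 6 and -1.25 in batch 7 for Ctla2a, -7.32 in batch 6 and -1.06 in batch 7 for Pf4, and -7.46 in batch 6 and -0.95 in batch 7 for Apoe.

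**Figure D5:**
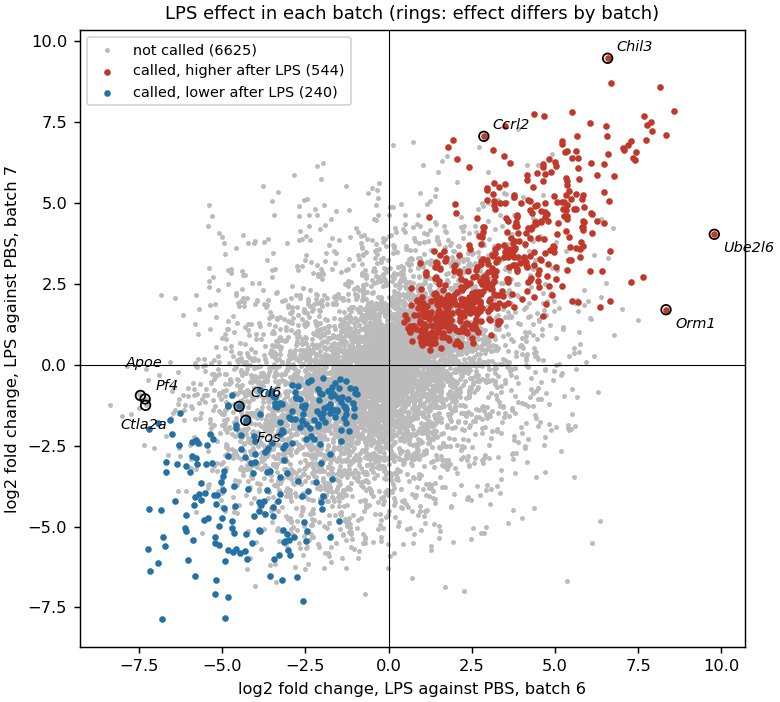
Log2 fold change of LPS over PBS within batch 6 (x axis) and within batch 7 (y axis) for the 7409 genes tested, called genes in red (544 higher) and blue (240 lower). Every called gene lies in the quadrant of one direction, as the call requires, and rings mark the 9 genes whose effect differed between batches.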

How the data were processed

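The authors trimmed reads with cutadapt 1.15, aligned them to mm9 with STAR 2.6.0a, removed duplicates by UMI on uniquely mapped reads and counted genes with HTSeq 0.11.2. Per the study's methods and the table, the deposited table holds whole UMI counts for every gene in every cell, after the authors' filter on cells and before any normalisation. The gene annotation is not given in the sources used here, nor whether counting used strand, so overlapping and antisense genes cannot be told apart. The deposited annotation adds batch, plate, group and the ERCC spike-in ratio, a fraction. Columns of its clusters were not used.

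Cells were assigned to plates by their names. The names of batch 7 match the labelled samples, and those of batch 6 give a group and plate only. Genes in at least 10 cells (9919 of 10970) were summed per plate, filtered with filterByExpr (7409 genes) and tested with edgeR 4.0.16 in R 4.3.3 (TMM, glmQLFit and glmQLFTest, batch and group as terms, 8 plates), with an interaction model for the difference between batches. Tests are two-sided, adjusted by Benjamini-Hochberg at 0.05. The common dispersion was 1.08. Plates of a group and batch correlated at Pearson's r of 0.694 to 0.775 over genes (log2 CPM), far beyond counting error, and counting intervals cover that error only. The script was tested on simulated data. Alternatives used DESeq2 1.42.0, limma 3.58.1, other scalings, filters, batches and cells, cells thinned to 5000 UMIs, and each plate left out.

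The members and lists were chosen with earlier results of these data known. Named genes are Sod2, the 12 largest rises and 12 largest falls among calls of at least 50 CPM with no overlap, the 10 most abundant calls, the 4 most abundant members of each list and the largest batch differences. Other list members named in the text were added after their values were seen, and some members are not reported here. ERCC rows number 0 in the table, so spike-in scaling was not used here.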

Additional observations from a re-analysis of the deposited data

Results flagged for a closer look

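In 282 groups of 4 plates, 141 genes in each treatment, levels were put on the scale of log2 of CPM plus 1. On that scale the gap between the highest or lowest plate and its nearest neighbour was divided by the range. The ratio was compared with Dixon's critical value for 4 values. That value was passed in 18 groups, and chance alone passes about 1 in 20 of such groups. On the LPS plates the ratio was 0.872 for Cd79a, 0.963 for Cd79b, 0.834 for Ms4a1, 0.945 for Ms4a6c, 0.924 for Gimap6 and 0.858 for Dnajc15, and in each of these 6 the high plate was plate 2 of batch 6. That plate held Cd79b at 109.2 CPM against at most 0.191 CPM on the other LPS plates. The same plate was the low one for Aldoa (0.952). LPS plate 1 of batch 7 was the high plate for the platelet gene Gp9 (0.953) and for the eosinophil gene Siglecf (1.0), which had 28.1 CPM there and 0 elsewhere among LPS plates.

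On the PBS plates, plate 2 of batch 6 was high for Cebpd (0.84), Clec4e (0.859), Dnajc15 (0.861) and Ifitm3 (0.846) and low for Gimap6 (0.943) and Svip (0.83). PBS plate 1 of batch 6 was low for Cd47 (0.922) and Prdx5 (0.903) and high for Ifit1 (0.961), at 149.9 CPM against 88.4 to 90.3 CPM on the others.

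The LPS effect differed between batches in 9 genes by the interaction term (edgeR, adjusted over 7409 genes). Its log2 value, batch 7 minus batch 6, was 6.64 for Apoe, 6.16 for Ctla2a, 6.15 for Pf4, 4.44 for Ccrl2, 3.20 for Ccl6, 3.14 for Chil3 and 2.56 for Fos, and it was -6.80 for Orm1 and -6.58 for Ube2l6. The platelet markers summed to 1198 to 2860 CPM on the PBS plates of batch 6 and to 311 to 499 CPM on those of batch 7, and their part in the Pf4 value was not tested.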

How the results depend on the processing

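Of the 3075 comparisons of a named gene with an alternative, 2817 kept direction and call, 96 gained a call, 155 lost one and 7 reversed. The reversals were all under library size alone, for Actb (-0.11), Aldoa (-0.87), Clec4e (-0.063), Fau (-0.84), Pkm (-0.77), Rac2 (-0.069) and Rps9 (-0.60), where the median of all genes moved from -0.21 to -1.12. The 784 calls became 1537 with DESeq2 (765 lower), 1299 with library size alone (279 higher, 1020 lower), 513 in batch 6 alone (350 higher), 293 in batch 7 alone (267 higher, 26 lower) and, as alternatives chosen after the data were seen, 622 without cells with lymphoid markers (160 lower) and 458 without cells with lymphoid or platelet markers (370 higher, 88 lower). Batches alone have fewer plates, which by itself lowers the count. Sums per batch and group gave 133 lower genes, and the filter on low counts changed fewer than the scaling, with 665 calls without it (164 lower). Leaving out 1 plate gave 476 to 639 calls, 381 to 453 higher and 83 to 186 lower, and 3 to 11 genes whose effect differed between batches. That last count was 9, and it was 3 with limma voom, 21 with library size alone, 14 without the filter and 28 in thinned cells. The cause of these shifts was not tested.

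The plate number as a replicate block gave 582 calls (442 higher, 140 lower). Deviations of same-numbered plates correlated at -0.045 in batch 6 and -0.017 in batch 7, so no shift shared by plate number was seen. Whether plates were paired in handling cannot be told from this. A fit without cells holding at least 5 UMIs of any other-cell marker was intended and not run, because it leaves 0 cells on LPS plate 1 of batch 6. Depth limits the genes with few UMIs on the PBS plates, whose folds rest on a prior count.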

Other observations

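Of the monocyte or macrophage markers, Ly6c2 rose from 106 ± 30.6 to 1445 ± 613 CPM (3.69 ± 0.36, adjusted p = 2.99e-05, edgeR), with every LPS plate above every PBS plate, whereas Csf1r, Adgre1, F13a1 and Ms4a6c were not called. Ms4a6c stood at 57.96, 63.98, 0.141 and 7.45 CPM on the PBS plates and 0.134, 9, 0 and 0 CPM on the LPS plates. Srgn, serglycin, the proteoglycan that packs granule proteins, stood at 4491, 5173, 4016 and 3445 CPM on the PBS plates and 9352, 8468, 10248 and 11621 CPM on the LPS plates (1.22 ± 0.22, adjusted p = 0.00331, edgeR), with 0.29 and adjusted p = 0.358 with library size alone. Prnp, the prion protein gene, stood at 0.878, 0.927, 0.283 and 0.226 CPM and 218, 146, 42.96 and 95.9 CPM (7.76 ± 0.64, adjusted p = 8.18e-06, edgeR). Slfn9, a Schlafen gene, stood at 0.146, 0, 0.141 and 0.226 CPM and 61.9, 45.5, 27.3 and 92.1 CPM, and the 2 highest cells of an LPS plate held 47.2 to 92.4% of its UMIs.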
